A study of Mus musculus with 2 samples.

Results

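Integrated stress response genes were examined in tumour CD11b+ cells with and without deletion of Nrp2. The 10 genes (Atf4, Ddit3, Atf5, Xbp1, Trib3, Ppp1r15a, Chac1, Asns, Sesn2 and Ddit4) were chosen by name as ATF4 and CHOP stress genes. Earlier results of these data were known when they were chosen. All 10 had a row among the 49585 Ensembl genes of the count table, and 9 had at least 50 reads over both libraries, the minimum used for ratios. Chac1 did not reach it.

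The cells were pulled with magnetic beads from digested tumours, which were implants of mouse pancreatic cancer lines under the skin of NRP2f/fCSF1R-iCRE mice of BL6 background. Their Nrp2 gene is floxed, and the Csf1r promoter, a promoter of monocytes and macrophages, drives an inducible Cre. Control and test animals shared this genotype. From the time tumours were palpable, the test animals received tamoxifen daily, whereas the labels mention neither tamoxifen nor vehicle for control animals, so effects of the drug and of Nrp2 loss cannot be told apart. Tumours were taken at 15 days, the sources used here do not give animal ages, and each group is 1 library of RNA pooled from 3 animals.

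The integrated stress response slows protein synthesis when any of 4 kinases phosphorylates the initiation factor eIF2α, and it favours translation of a few mRNAs with upstream reading frames, among them that of the transcription factor ATF4. ATF4 then drives genes of amino acid supply and redox balance, and with its partner CHOP (Ddit3) genes of feedback and cell death. In the endoplasmic reticulum it runs beside the IRE1 and ATF6 branches of the unfolded protein response, which act through XBP1 and ATF6 on chaperone genes. In tumours, amino acid shortage, low oxygen and protein misfolding are known triggers. RNA counts read transcript levels, not translation of ATF4 or phosphorylation of eIF2α.

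Counted reads came to 64153676 in the control and 68554172 in the knockout library. Nrp2, the targeted gene, had 9686 reads in the control and 1017 in the knockout library and was 9.7-fold lower there (95% interval 6.94 to 13.8). With 1 library per group no difference has a replicate check and no test was run. A gene was therefore described by the size of its ratio, with 2-fold as the line. The median count of genes seen in only one library was 47 reads in the control and 24 in the knockout library, so 1 captured fragment was taken as worth that many reads. Intervals of a ratio are exact Clopper-Pearson intervals at 95%, computed on estimated fragments. They hold counting error alone, and differences between animals or pools are outside them.

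Expression of the stress genes was mostly at or above the control level in the knockout library, with clear differences in size between genes. Ddit3 was 3.79-fold higher. Asns had a ratio of 5.41 (1.13 to 73.1), with control reads under the 141 that a count of 0 allows. Ddit4 was 1.79-fold and Atf4 1.3-fold higher. Xbp1, Ppp1r15a, Sesn2 and Atf5 had intervals that included equal levels. Of the 9 genes with enough reads, 2 were at least 2-fold higher, beside 10.9% of all 14420 genes with at least 50 reads, and 0 were lower by 2-fold, beside 14.7%. A ratio above 1 was found for 8 of the 9, beside 49.5% of all genes. The interval lay wholly above equal levels for 4 of the 9, beside 12.7% of all genes, and wholly below for 0, beside 11.0%. The median log2 ratio of the 9 genes was 0.38, where that of all genes was -0.0082. Among genes with at least 1000 reads, 7 of the 10 were left. Of these, 1 was at least 2-fold higher, beside 4.53% of all 9054 such genes, and 0 were as much lower, beside 4.0%. A ratio above 1 was found for 6, beside 53.5%, and the median log2 ratio was 0.32, beside 0.04. The interval lay wholly above equal levels for 3 of the 7, beside 19.0%, and wholly below for 0, beside 15.1%.

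**Figure D1:**
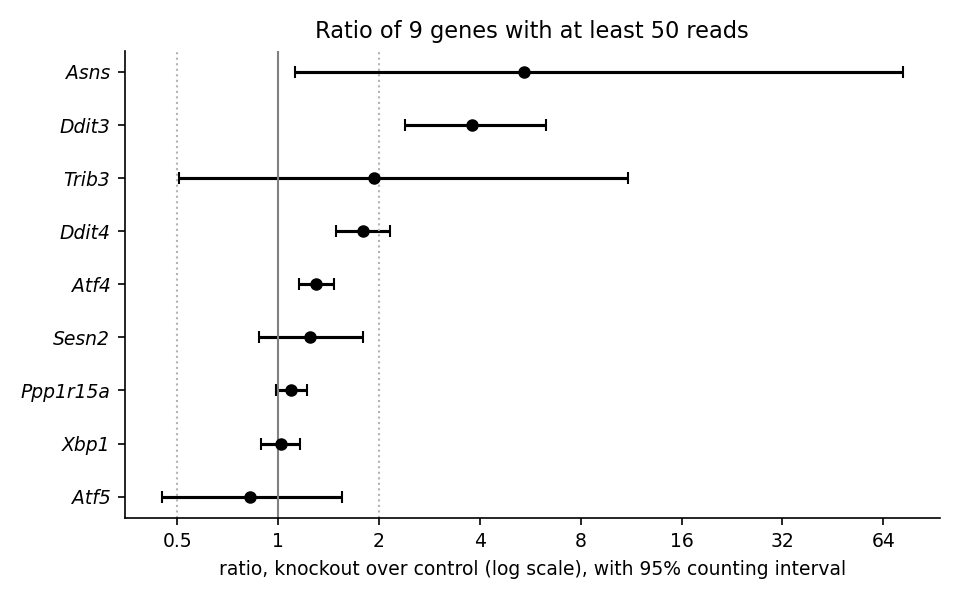
Ratio of the knockout over the control library for the 9 genes with at least 50 reads, on a log axis; points are ratios and bars 95% counting intervals, the solid line marks equal levels and the dotted lines 2-fold. The bars of Asns, Ddit3, Ddit4 and Atf4 lie wholly above 1, and that of Asns spans 1.13 to 73.1.

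Of the transcription factors, Atf4 (chr15:80255184-80257541, plus strand, GRCm38), the central activator of the pathway, had 18012 reads in the control and 23830 in the knockout library. Its normalised level was 274 and 356 CPM (counts scaled to the normalised library size), a ratio of 1.3 (1.15 to 1.47). The knockout library was higher by less than 2-fold. Of all genes with at least 1000 reads, 24.9% had a ratio at least as high, so a difference of this size was common between these libraries.

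Ddit3 (chr10:127290774-127296288, plus strand), which encodes CHOP, a partner of C/EBP factors linked to cell death under lasting stress, had 979 reads in the control and 3781 in the knockout library. Its level was 14.9 and 56.5 CPM, a ratio of 3.79 (2.39 to 6.31). The interval lay wholly above 2-fold, the only such interval among the 9 genes. Exons of Ddit3 share 68 bases with Mars and 13 with Gm4189 on the opposite strand, and 105 with a second gene model of the same name on its own strand, not analysed here. Use of strand in the counting is not stated, so a part of its reads is uncertain. For Mars the reads were 2688 and 2130, with an interval that included equal levels. A ratio at least as high was found for 67 of the 9054 genes with at least 1000 reads (0.74%). In the authors' deposited table its log2 fold change was 1.93 with a standard error of 0.78, a p-value of 0.0131 and an adjusted p of 0.933. That p compares these libraries, not the conditions, and the lowest adjusted p of any gene in the authors' deposited table was 0.331.

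The promoter of Ddit3 is shown because this gene had the best-supported difference. The stretch is taken from the RefSeq promoter table (GRCm38.p6), chr10:127290543-127290773, plus strand, and ends before the first annotated transcript base. This stretch holds neither of the motifs searched below, so no letters are in capitals. Bases further upstream of Ddit3 were not searched, so the absence applies to the searched window alone, not to the whole promoter.
Ddit3: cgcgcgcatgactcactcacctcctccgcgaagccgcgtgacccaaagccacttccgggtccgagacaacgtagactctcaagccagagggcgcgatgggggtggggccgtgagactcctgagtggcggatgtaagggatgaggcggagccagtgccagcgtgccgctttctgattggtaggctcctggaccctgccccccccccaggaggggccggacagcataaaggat

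Atf5 (chr7:44812256-44816658, minus strand), a relative of Atf4 tied to the mitochondrial stress response, had 883 reads in the control and 741 in the knockout library (13.4 and 11.1 CPM). It was the only one of the 9 genes with the lower value in the knockout library, at a ratio of 0.824 (0.45 to 1.55), and its interval included 1. Its exons share 82 bases with Il4i1 and with Nup62 on the opposite strand, and use of strand in the counting is not stated, so a part of these reads is uncertain. Xbp1 (chr11:5520659-5525893, plus strand), the factor whose mRNA is spliced by the sensor IRE1, had 15691 and 16247 reads, or 239 and 243 CPM. Its ratio was 1.02 (0.891 to 1.16) and turned below 1 under upper-quartile scaling (log2 ratio -0.05) and scaling to total counts (-0.05). Gene-level counts do not tell its spliced from its unspliced mRNA. The level of Xbp1 was thus nearly the same in both pools.

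Of the feedback genes, Ppp1r15a (chr7:45522916-45526268, minus strand), which encodes GADD34, the inducible subunit that brings a phosphatase to eIF2α, had 23582 and 26281 reads, or 359 and 393 CPM. The ratio was 1.09 (0.984 to 1.22). Its constitutive counterpart Ppp1r15b, which encodes CReP, had 9500 and 18339 reads and was 1.9-fold higher (1.62 to 2.22), so the counterpart had the larger ratio of the pair, and the intervals do not overlap. Trib3 (chr2:152337422-152344032, minus strand), a pseudokinase that restrains ATF4 activity, had 137 reads in the control and 270 in the other library, or 2.08 and 4.03 CPM. The ratio of 1.94 had an interval of 0.508 to 11.1, and the control reads lay under the 141 that a count of 0 allows in that library (3 fragments). Its interval included equal levels, so no difference in Trib3 was detectable at this depth. Among genes with a total within 2-fold of that of Trib3, 41.4% were at least 2-fold apart between the libraries.

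Of the metabolic effectors, Asns (chr6:7675169-7693254, minus strand), the asparagine synthetase and a standard target of ATF4, had 74 reads in the control and 408 in the knockout library (1.13 and 6.1 CPM). The ratio was 5.41 (1.13 to 73.1). The control value corresponds to 1.57 fragments and the knockout value to 17, so the size of the difference is poorly fixed. Among genes with a total within 2-fold of that of Asns, 38.3% were at least 2-fold apart, and 3.52% had a ratio at least as high. Like those of Trib3, the control reads lay under the limit of 141, while the interval of Asns, unlike that of Trib3, lay above equal levels. With 1 fragment taken as worth the upper quartile of these reads (62 and 38) in place of their median, 3 rather than 4 of the 9 genes had an interval wholly to one side of equal levels. Chac1 (chr2:119351229-119354381, plus strand), which degrades glutathione, had 0 reads in the control and 38 in the knockout library. Counts of 0 allow up to 141 reads in the control and 72 in the knockout library, so both values lay within the limit of detection and no fold is given.

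Sesn2 and Ddit4 restrain the growth kinase complex mTORC1 under stress. Sesn2 (chr4:132492032-132510501, minus strand), which encodes a leucine sensor, had 2154 and 2731 reads, or 32.8 and 40.8 CPM, and a ratio of 1.25 (0.876 to 1.79). Ddit4 (chr10:59949669-59951834, minus strand), which encodes REDD1, had 6978 and 12716 reads, or 106 and 190 CPM. It was 1.79-fold higher in the knockout library (1.49 to 2.16). Of the genes with at least 1000 reads, 7.25% had a ratio at least as high as that of Ddit4. Of the relatives of Sesn2, Sesn1 was 1.67-fold lower (1.26 to 2.22) and Sesn3 2.86-fold lower (1.4 to 5.99). Of 8 close relatives of the stress genes with enough reads, 0 were 2-fold higher, beside 10.9% of all genes, and 1, Sesn3, was 2-fold lower, beside 14.7%. The median log2 ratio of these relatives was -0.10, and Asnsd1 had a ratio of 1.82 (0.802 to 4.69).

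**Figure D2:**
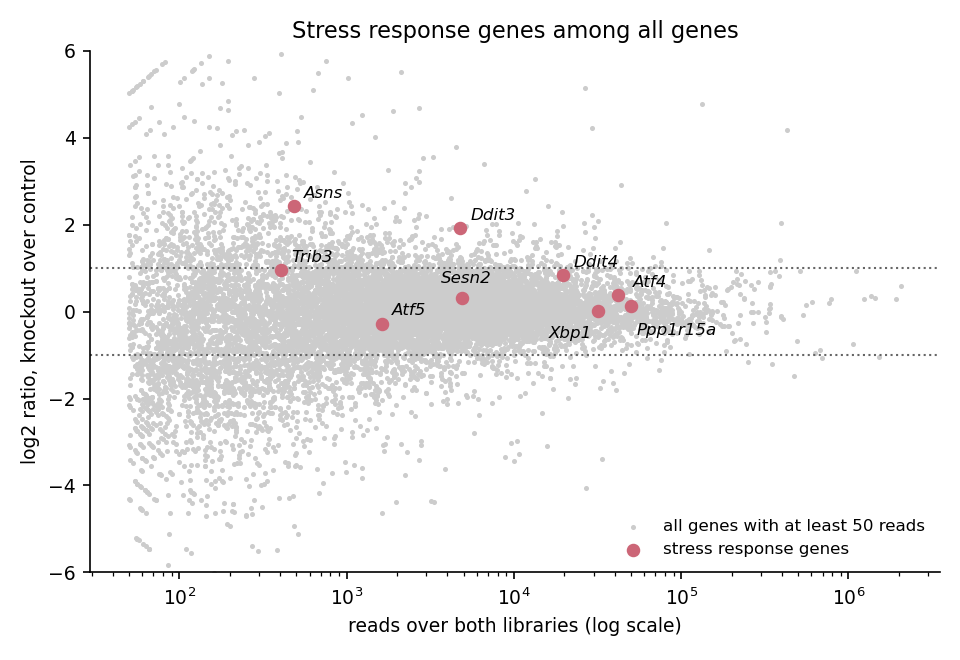
Log2 ratio of the knockout over the control library (vertical axis) against reads over both libraries (horizontal log axis); grey points are all genes with at least 50 reads, coloured points the stress genes, and dotted lines 2-fold. Asns and Trib3 sit where the grey points spread widely, Ddit3 lies above most genes of its depth, and 829 genes beyond a log2 ratio of 6 in either direction are not drawn.

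Levels were compared between genes as CPM per kilobase of annotated exon, with exact Poisson intervals on fragments. In the control library Ppp1r15a (122, interval 112 to 133) and Atf4 (116, 105 to 128) had the highest levels per length and their intervals overlapped. Xbp1 (73.5, 65.8 to 81.8) and Ddit4 (60.5, 51.2 to 71.1) followed, again with overlapping intervals. Sesn2 (9.43), Ddit3 (8.7) and Atf5 (6.74) formed a middle group whose intervals overlapped, and Trib3 (0.981), Asns (0.412) and Chac1 (0) were lowest.

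In the knockout library the order was Atf4 (151), Ppp1r15a (134), Ddit4 (108), Xbp1 (74.7), Ddit3 (33), Sesn2 (11.7), Atf5 (5.56), Asns (2.23), Trib3 (1.9) and Chac1 (0.347). The intervals of Atf4 (142 to 161) and Ppp1r15a (126 to 142) overlapped narrowly, and those of Asns (1.3 to 3.57), Trib3 (0.956 to 3.38) and Chac1 (0.0278 to 1.44) overlapped. Ddit4 (99.2 to 118) stood above Xbp1 (69.2 to 80.6) without overlap of the intervals. Ddit3 (28 to 38.6) lay apart from both neighbours, below Xbp1 and above Sesn2 (9.69 to 14.1). The level of Ddit3 exceeded that of 72.7% of detected genes in the control and 91.8% in the knockout library.

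**Figure D3:**
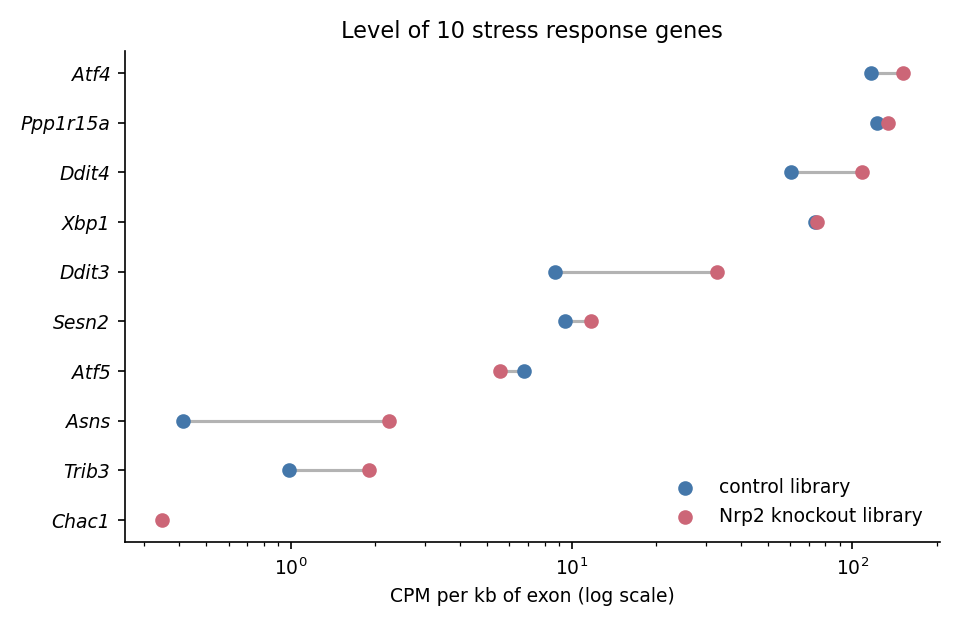
Level of the 10 genes in CPM per kilobase of exon (log axis) in the control (blue) and knockout (red) library, with a line joining the values of a gene; Chac1 has no control point because it had 0 reads there. The widest shifts are those of Asns (0.412 to 2.23) and Ddit3 (8.7 to 33), while the points of Xbp1 nearly coincide.

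ATF4 acts with C/EBP factors on a composite DNA element, and promoter windows were searched for its letters. RefSeq windows of GRCm38.p6, from 250 bases before to 50 after the annotated start, were found for all 10 genes (11 windows, as Atf5 has 2 starts). The C/EBP-ATF element was searched as TGATGNAA and the cAMP response element as TGACGTCA, on both strands, and the matches did not overlap. The C/EBP-ATF letters were in 3 of the 11 windows, those of 3 genes, beside 3.97% of all 32851 windows. The cAMP response element was in 1 of the 11, beside 1.79%. A match is a description of letters, not a shown binding site. Bases outside the windows were not searched, so a gene without a match, Ddit3 among them, may hold the letters elsewhere.

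The matches are printed as 30-base stretches on the strand of the gene, with the matching letters in capitals. They are shown since the genes with the C/EBP-ATF letters in their windows (Asns, Chac1 and Trib3) are the 3 with the lowest levels. The stretch of Asns is chr6:7693214-7693243 (minus strand), that of Chac1 chr2:119351038-119351067 (plus strand), that of Trib3 chr2:152344028-152344057 (minus strand) and that of Ppp1r15a, with the cAMP response element, chr7:45526262-45526291 (minus strand). In Chac1 and Trib3 the element lies on the other strand.
Asns: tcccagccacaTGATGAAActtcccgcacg
Chac1: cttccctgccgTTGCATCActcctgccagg
Trib3: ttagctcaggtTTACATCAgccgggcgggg
Ppp1r15a: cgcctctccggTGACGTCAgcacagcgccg
The Asns match begins 23 bases before the annotated RefSeq start, that of Chac1 193 before, that of Ppp1r15a 12 before and that of Trib3 14 after it. The 3 genes with the C/EBP-ATF letters had 0 to 137 reads in the control and 38 to 408 in the knockout library.

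Upstream start codons were counted in the annotated leader of each gene's longest coding transcript (GENCODE M21). Of the 10 genes 7 had at least 1 upstream ATG, beside 53.3% of 20312 coding genes. Ppp1r15a had 7, Atf4 3, and Ddit3 and Atf5 2 each, whereas Trib3, Chac1 and Ddit4 had 0. The median leader of the 10 genes was 267 bases, beside 164 for all.

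Regulators upstream of these genes mostly had ratios above 1, each by less than 2-fold, and most of their intervals included equal levels. For this and the later lists, the shares of all genes with at least 50 reads were 10.9% at least 2-fold higher and 14.7% lower. Among genes with at least 1000 reads they were 4.53% and 4.0%. These are the shares to set beside lists whose genes with enough reads all have at least 1000. Such are the lists of kinases, eIF2 and phosphatase genes, dimer partners, tRNA synthetases, and XBP1 and ATF6 branches. The lists of the mitochondrial unfolded protein response, mTORC1 regulators, hypoxia response and immediate early genes are also of this kind. All 4 eIF2α kinases had a ratio above 1, beside 53.5% of genes with at least 1000 reads, but 0 of 4 were at least 2-fold apart (median log2 ratio 0.30). The interval lay wholly above equal levels for 1 of the 4, beside 19.0% of such genes. Eif2ak4, the amino acid sensor GCN2, had 1584 and 2595 reads and a ratio of 1.61 (1.08 to 2.44). Eif2ak3 (PERK) and Eif2ak2 (PKR) had ratios of 1.28 (0.906 to 1.82) and 1.19 (0.855 to 1.68), and Eif2ak1 (HRI) 1.06 (0.842 to 1.34). Of 14 genes listed for eIF2, its exchange factor eIF2B and the eIF2α phosphatase, 0 were at least 2-fold apart and 11 had a ratio above 1. Their intervals lay wholly above equal levels for 2 of the 14, beside 19.0%, and wholly below for 1, beside 15.1%. The list also counts Eif2a and Eif4ebp1, which encode no subunit of these complexes. Beside Ppp1r15b, Eif2s2 was 1.26-fold higher (1.01 to 1.57) and the phosphatase gene Ppp1ca 1.19-fold lower (1.07 to 1.32).

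Among 14 dimer partners and relatives of ATF4 and CHOP, 1 was at least 2-fold higher and 0 lower (median log2 ratio 0.09). This was Jdp2, a repressor of the AP-1 family, at 2485 and 8458 reads and 3.34-fold higher (2.5 to 4.55). Cebpa, a partner of CHOP in myeloid cells, had 14322 and 29156 reads and a ratio of 2.0 (1.76 to 2.27), just under the 2-fold line. Jun, an AP-1 subunit, was 1.64-fold higher (1.52 to 1.77). Cebpb had a ratio of 1.04 (0.959 to 1.13), and Atf3, another stress-induced factor, was 1.16-fold lower (1.09 to 1.25).

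Target genes of ATF4 went in both directions. Of 19 genes of amino acid synthesis and transport, 13 had at least 50 reads (median log2 ratio 0.06). Of these 13, 0 were 2-fold higher, beside 10.9% of all such genes, and 2 were 2-fold lower, beside 14.7%. Among the 12 with at least 1000 reads, 0 were 2-fold higher, beside 4.53%, and 1 was 2-fold lower, beside 4.0%. Counts this small cannot be told from those shares. A ratio above 1 was found for 9 of the 13, beside 49.5%. Intervals lay wholly above equal levels for 2, beside 12.7%, and wholly below for 1, beside 11.0%. Aldh18a1, a proline synthesis enzyme, had 2404 and 799 reads and was 3.06-fold lower (1.94 to 4.89), and Phgdh, of serine synthesis, had 336 and 137 reads with an interval that included 1. The amino acid transporter gene Slc38a2 was 1.69-fold higher (1.43 to 2.0), the cystine transporter gene Slc7a11 1.22-fold higher (1.02 to 1.45), and Slc7a5 had a ratio of 1.49 (0.948 to 2.43). Psat1, Shmt2 and Mthfd2 had ratios of 1.11, 1.05 and 1.0. All 20 cytosolic aminoacyl tRNA synthetase genes had at least 1000 reads. Of them 0 were 2-fold higher, beside 4.53% of all such genes, and 0 were 2-fold lower, beside 4.0%. A ratio above 1 was found for 5 of the 20, beside 53.5% (median log2 ratio -0.06). Cars was 1.59-fold lower (1.04 to 2.4), Dars 1.33-fold lower (1.01 to 1.73), and Mars had a ratio of 0.778 (0.552 to 1.1).

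Of 21 other listed targets of ATF4 and CHOP, 19 had enough reads, with 1 at least 2-fold higher, again Jdp2, and 0 lower (median log2 ratio 0.13). Gdf15, a secreted stress cytokine, was 1.44-fold higher (1.18 to 1.76) and Rhoq, a small GTPase, 1.34-fold higher (1.06 to 1.7). Fgf21 had 0 reads in both libraries. The 8 genes of the mitochondrial unfolded protein response, the setting in which ATF5 is known, held 0 that were 2-fold apart (median log2 ratio 0.07). A ratio above 1 was found for 4 of the 8, beside 53.5% of genes with at least 1000 reads. The protease gene Yme1l1 and the unfoldase gene Clpx had ratios of 1.41 (1.1 to 1.81) and 1.37 (0.903 to 2.13). The ratio of the co-chaperone gene Dnaja3 was 1.38 (0.846 to 2.31).

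Genes of the XBP1 and ATF6 branches lay below the control level more often than above it. All 31 with enough reads had at least 1000. Of them 0 were 2-fold higher, beside 4.53% of all such genes, and 0 were 2-fold lower, beside 4.0%. Of these 31 genes 10 had a ratio above 1, beside 53.5%, and the median log2 ratio was -0.18. Their intervals lay wholly below equal levels for 13 of 31 and wholly above for 3, beside 11.0% and 12.7% of all genes with at least 50 reads, or 15.1% and 19.0% of those with at least 1000. Hyou1, an endoplasmic reticulum chaperone, had 9478 and 5352 reads and was 1.8-fold lower (1.48 to 2.19). Creld2, a secreted stress protein, was 1.76-fold lower (1.23 to 2.51) and Pdia6, a disulphide isomerase, 1.6-fold lower (1.41 to 1.82). Hspa5, the master chaperone BiP, had 80922 and 71652 reads and was 1.15-fold lower (1.08 to 1.22). The 3 genes with intervals above equal levels were Dnajc3, Sel1l and Dnajb9, at ratios of 1.31, 1.35 and 1.36; they were named after their values were seen. Plasma cells are rich in these chaperones, and their markers summed to 479 CPM in control and 230 CPM in knockout cells. Of 9 such markers 6 were 2-fold lower, and Derl3, which is in both lists, was at 0 in the control library. Their part in this pattern was not tested. Whether the higher Ddit3 was linked to the levels of these chaperone genes was not tested.

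**Figure D4:**
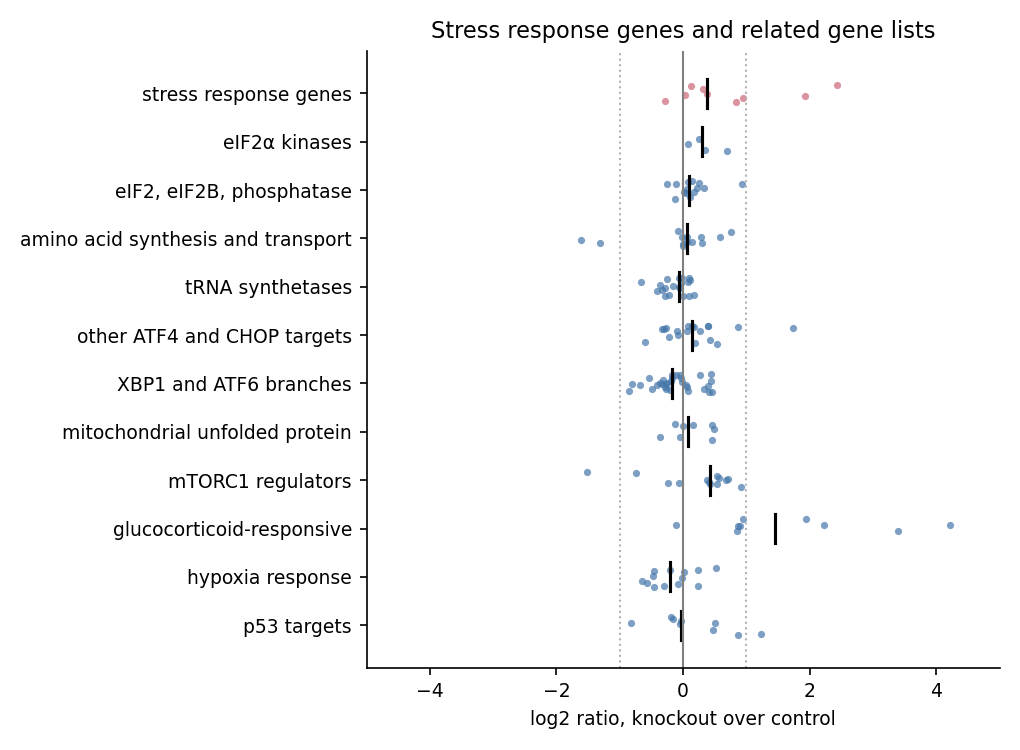
Log2 ratio of the knockout over the control library for the stress genes (red) and 11 related gene lists (blue), 1 point per gene with at least 50 reads, with black bars at the median of each list and dotted lines at 2-fold; 1 gene lies beyond the axis. The median is -0.18 for the XBP1 and ATF6 branches and 1.45 for the glucocorticoid-responsive list, and all other medians lie between -0.21 and 0.43.

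Ddit4 and Sesn2 respond to several other signals, and lists for these were set beside them. Of 13 further mTORC1 regulators with enough reads, 0 were at least 2-fold higher and 1 lower, Sesn3 (median log2 ratio 0.43). Tsc1, part of the inhibitory complex that REDD1 engages, was 1.89-fold higher (1.24 to 2.95). Of 10 glucocorticoid-responsive genes, a class to which Ddit4 is known to belong, 5 were at least 2-fold higher and 0 lower (median log2 ratio 1.45, or 1.34 with Pdk4, at 0 in the control library, at its bound). Tsc22d3 was 4.67-fold higher (3.83 to 5.75), and larger ratios were those of Klf9 at 10.5 (5.9 to 20.5) and Fkbp5 at 18.7 (13.1 to 27.5). Hypoxia response genes, another class with Ddit4, held 0 of 13 at least 2-fold apart (median -0.21), with Ankrd37 and Adm at ratios of 0.639 (0.389 to 1.06) and 0.672 (0.324 to 1.43) and Pdk1 1.43-fold higher (1.13 to 1.84). Among 9 p53 target genes 1 was at least 2-fold higher (median -0.03), Trp53inp1 at 2.33-fold (1.65 to 3.37); Mdm2 was 1.42-fold higher (1.16 to 1.74) and Zmat3 had a ratio of 1.38 (0.696 to 2.92). The part of any of these signals in the level of Ddit4 was not tested.

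Tissue digestion is known to induce immediate early genes, Ppp1r15a and Atf3 among genes of that kind. Of 16 such genes 0 were 2-fold higher and 1 was 2-fold lower (median log2 ratio 0.21). Their intervals lay wholly above equal levels for 8 of 16 and wholly below for 3, beside 19.0% and 15.1% of genes with at least 1000 reads, and their summed level was 15720 and 19770 CPM. Hspa1b, a heat shock gene with a near-identical copy, had a ratio of 0.478 (0.349 to 0.654), and Klf6 was 1.91-fold higher (1.78 to 2.06) and Dusp1 1.83-fold higher (1.74 to 1.94). The part of digestion in the ratios of the stress genes was not tested.

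The makeup of the pools differed between the libraries, and in bulk samples a change in cells of a type and a change in RNA per cell cannot be told apart. The 10 macrophage markers summed to 14470 and 15030 CPM, none at 0, with 1 at least 2-fold higher. Markers of T cells (199 and 62.7 CPM, 10 of 10 at least 2-fold lower), B cells (24.2 and 4.87 CPM, 4 of 5 lower, Cr2 at 0 in both and Pax5 in the knockout library), conventional dendritic cells (422 and 141 CPM, 7 of 8 lower, Xcr1 at 0 in the knockout library) and proliferation (158 and 86.3 CPM, 5 of 6 lower) were lower. Those of plasma cells, which depend on Xbp1, summed to 479 and 230 CPM, with 6 of 9 at least 2-fold lower and Derl3 at 0 in the control library, beside the ratio of 1.02 for Xbp1. Monocyte markers summed to 1409 and 6526 CPM with 2 of 8 higher and 5 lower, and Chil3 alone went from 338 to 6072 CPM. Without Chil3 the other 7 summed to 1071 and 453 CPM, the opposite direction. Neutrophil markers summed to 1059 and 1169 CPM, with 5 of 10 higher and 1 lower, and Elane and Ly6g at 0 in the control library. Adipocyte markers summed to 12.6 and 112 CPM, 6 of 6 higher, with Adipoq, Plin1 and Retn at 0 in the control library and Lep at 0 in both. With genes at 0 in one library held at their bound against the floor, the counts were 4 of 6 higher for adipocytes, 3 of 10 for neutrophils, and 6 of 8 and 3 of 5 lower for dendritic and B cells. Epithelial tumour cell (194 and 129 CPM), fibroblast (325 and 196), endothelial (85.4 and 21.5), eosinophil (260 and 92.8) and plasmacytoid dendritic cell (200 and 169) markers were lower in sum. Most of the plasmacytoid dendritic cell sum was Bst2 (146 and 108 CPM). Of the 6 markers of these cells 3 had a ratio above 1, and their median log2 ratio was 0.06. The part of these cell types in the ratios of the stress genes and related lists was not tested.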

How the data were processed

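RNA of CD11b+ tumour cells was sequenced in 2 libraries, 1 per group, each pooled from 3 animals; groups come from the sample titles. The authors deposited whole-number counts per Ensembl gene. Per the submitters' processing notes, reads were trimmed with cutadapt, aligned with HISAT2 to GRCm38 and counted with featureCounts; the sources used here give neither versions nor the strand setting. Per the file headers, read 1 was counted. The authors also deposited a comparison table with DESeq2-style column names; its normalised signal equals the deposited counts over 1 constant per library, and it gives log2 fold changes, a score (their quotient with the standard error), p-values and adjusted p-values. The tool behind it is not stated. PCR duplicates count as reads.

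Symbols matched 49326 of 49585 identifiers (GENCODE M21, GRCm38). Libraries were scaled with TMM factors (edgeR 4.0.16, R 4.3.3; 1.02 and 0.976). Log2 ratios used a prior of 0.5 counts, for 14420 genes with at least 50 reads. Fragments were estimated from genes at 0 in the other library and above 4 reads (867 and 2114 genes), and a count of 0 allows 3 fragments. Ratios and intervals were tested on simulated data of genes with at least 1000 reads, with every fragment worth the same number of reads. Such data cannot check the intervals of genes with fewer reads, nor the effect of uneven amplification. The alternatives were DESeq2 1.42.0 size factors, upper-quartile and total-count scaling, other count minimums, a prior of 5 counts, removal of a trend with length and GC content, and other fragment values. Named genes were all 10 stress genes, Nrp2 and up to 3 genes per related list with the largest ratio among those with at least 1000 reads. Further list genes were chosen after their values were seen: Cebpb, Atf3, Phgdh, Psat1, Shmt2, Mthfd2, Hspa5, Eif2ak1, Fgf21, Slc7a11, Chil3, Pdk4, Bst2 and the 3 with intervals above equal levels. The stress genes and the lists were chosen with earlier results of these data known.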

Additional observations from a re-analysis of the deposited data

How the results depend on the processing

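Scaling with DESeq2 size factors, upper-quartile factors or total counts, and a prior of 5 counts, left 2 of 9 stress genes at least 2-fold higher and 0 lower. With at least 1000 reads required the number was 1 of 7, since Asns and Trib3 have fewer. With a trend on length and GC content removed it was 4 of 9, as Trib3 (log2 ratio 1.12) and Ddit4 (1.03) passed 2-fold, and Atf4 reached 0.56, beyond its counting interval. Without a count minimum Chac1 entered, and the median log2 ratio was 0.61 over 10 genes. Intervals on undivided reads lay to one side of equal levels for 8 of 9 genes, since reads of 1 fragment are then taken as independent. Of 61 alternative values of single stress genes 60 stayed within the counting interval. Those under other count minimums could not differ, since a minimum leaves the ratio of a gene unchanged, so they are no check. Xbp1 alone changed sign, under 2 scalings. Among 172 genes of the related lists 7 were at least 2-fold higher and 4 lower; DESeq2 size factors gave 8 and 4, and 1000 reads 6 and 3 of 164. No paired analysis was possible because each group has 1 library, and no library could be left out. Few fragments limit Chac1, Trib3 and Asns.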
